A study of Mus musculus with 3 samples.

Results

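Small nuclear RNAs (snRNAs) were examined in extracellular vesicles (EVs) from mouse testis. Every catalogue entry that the authors typed as snRNA was taken and named by its family description, which gave 16 of the 2780 small RNA entries seen in any library. The 5 RNAs of the major spliceosome (U1, U2, U4, U5 and U6), 4 of the minor spliceosome (U11, U12, U4atac and U6atac) and U7 account for 10 of these entries. The remaining 6 were the SmY family and 5 families named for U1 of yeast and for U1, U2, U4 and U6 of Giardia.

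All libraries belonged to 1 condition. Each of the 3 libraries came from EVs of 10 C57/BL6 male mice at postnatal day 7 (PND7), isolated from the supernatant of enzymatically dissociated, decapsulated testes on an affinity column and by ultracentrifugation. The EVs were exposed to proteinase K, PMSF and RNase A, and RNA was then extracted. The statistics paragraph of the study speaks of fewer independent sets for small RNA sequencing than there are libraries here. The legend of its supplementary figure on small RNA gives 3 samples, each a pool from 10 mice. The biological replicates given in the labels were used as n. RNA of the testis cells themselves and untreated EVs were not analysed here, so these values give levels within EVs and no enrichment over cells. The vesicles came from the whole dissociated testis and were not sorted by their cell of origin. The catalogues list small RNAs and no messenger RNA, so the tissue was not checked against protein-coding markers.

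Spliceosomal snRNAs assemble with proteins into particles (snRNPs) that remove introns from pre-mRNA in the nucleus. The major spliceosome removes nearly all introns, and the minor spliceosome removes a small, conserved class of introns with its own RNAs, sharing only U5 with the major one. U7 is not a splicing RNA: it guides the cleavage that forms the 3′ end of replication-dependent histone mRNAs. U6 and U6atac are made by RNA polymerase III and carry an LSm ring, whereas the other RNAs are made by RNA polymerase II and carry a ring of Sm proteins (a partly different one in U7).

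Reference sequences are shown for U1, U11, U12 and U7, on which the ratios between and within the spliceosomes turn. They were read from GENCODE vM21 on GRCm38, 5′ to 3′ along the RNA strand. Capitals mark the stretch of U1 that pairs with the 5′ splice site and the Sm sites of U11 and U12, where Sm proteins bind. The stretches of U11 and U12 that act on introns, and the Sm site of U1, are not marked. In U7, where only bases 9 to 28 are shown, capitals mark the stretch that pairs with the histone downstream element and then the Sm site.
Rnu1a1: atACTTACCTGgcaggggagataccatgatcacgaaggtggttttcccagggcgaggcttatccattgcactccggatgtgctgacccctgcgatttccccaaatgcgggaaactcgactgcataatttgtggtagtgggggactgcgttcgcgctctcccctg
Rnu11: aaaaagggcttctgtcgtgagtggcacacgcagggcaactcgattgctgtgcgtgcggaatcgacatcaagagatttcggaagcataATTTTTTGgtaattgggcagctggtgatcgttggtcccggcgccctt
Rnu12: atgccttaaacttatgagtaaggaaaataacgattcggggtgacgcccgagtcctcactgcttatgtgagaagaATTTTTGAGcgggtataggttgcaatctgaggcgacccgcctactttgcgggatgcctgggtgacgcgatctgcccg
Rnu7: CAGCTCTTTtagAATTTGTC

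Rnu1a1 lies at chr11:87422867-87423030 on the plus strand, within an intron of Tex14 on the same strand. Rnu11 is at chr4:132270080-132270213 on the minus strand, opposite an exon of the lincRNA Gm28872. Rnu12 is at chr15:83149644-83149794 on the plus strand, with no overlapping gene. Rnu7 is at chr6:124741225-124741286 on the minus strand, and the bases shown span chr6:124741259-124741278. It lies inside an exon of Grcc10 and overlaps an intron of Gm45234, each a protein-coding gene on the same strand. Reference genes were also used for U2, Rnu2-10 at chr11:101658238-101658428 (plus strand, no overlapping gene), and for U5, Rnu5g at chr9:65201726-65201841 (minus strand, opposite an intron of Parp16). Strand use in counting was not given in the sources used here, so reads of an snRNA and of an RNA overlapping its gene cannot be told apart.

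Motifs were searched on the RNA strand of the 1383 annotated snRNA transcripts. ACTTACCTG, at bases 3 to 11 of U1, was in 55 transcripts (3.98%). The Sm site pattern ATTTNTNG was in 133 (9.62%), among them U11 at bases 88 to 95, U1 at 126 to 133, U2 at 99 to 106 and U5 at 88 to 95. The exact forms in U12 (ATTTTTGAG, bases 75 to 83, 0.289% of transcripts) and U7 (AATTTGTC, bases 21 to 28, 0.217%) were rarer among them. The Sm site pattern leaves bases open (N) and these forms do not, so their percentages are not on an equal footing. The U7 stretch CAGCTCTTT, at bases 9 to 17, was in 1.74%. These counts cover functional genes and annotated copies alike. Exactly the sequence of Rnu6, the reference gene for U6, is shared by 43 transcripts, that of Rnu1a1 by 7 and that of Rnu2-10 by 4. The sequences of Rnu5g, Rnu11, Rnu12 and Rnu7 each occur once. Rnu1b1 and Rnu1b2, a second form of U1, share 158 of 165 aligned positions with Rnu1a1 (95.8% identity). The catalogue counts a family as 1 entry, so gene copies, variants and pseudogenes are pooled in every value below. It gives no read lengths or positions either, so whole RNAs and fragments cannot be told apart.

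The snRNA entries drew 138497 of 25716952 clean reads in replicate 1. They drew 70376 of 26002463 in replicate 2 and 91571 of 27939308 in replicate 3. The snRNA share of clean reads was 0.539% in replicate 1 (exact Clopper-Pearson 95% interval 0.536 to 0.541), 0.271% in replicate 2 (0.269 to 0.273) and 0.328% in replicate 3 (0.326 to 0.330). Replicate 1 stood above both others by far more than the counting error, which is all that such intervals cover. The snoRNA share was likewise highest in replicate 1, at 0.944%, against 0.520% and 0.545%, and reads from introns took 0.332% there against 0.109% and 0.104%. This was not limited to these classes: rRNA took 25.6%, 20.6% and 23.6% in replicates 1 to 3. The class of other small noncoding RNAs took 0.874%, 0.743% and 0.791%. Exon reads were instead highest in replicate 2 (0.175%, 0.189% and 0.0362%). Per snoRNA read there were 0.570, 0.520 and 0.601 snRNA reads in replicates 1 to 3, a mean of 0.564 ± 0.0408 (SD, n = 3). The share of mature miRNAs was in contrast lowest in replicate 1, at 3.39%, against 3.87% and 3.46%. That of tRNA was also lowest there, at 3.53%, against 5.10% and 3.77%. The part of nuclear or intronic RNA in the snRNA level was not tested. At these depths a count of 3, the limit that a count of 0 allows, corresponds to 0.107 to 0.117 CPM, where CPM is the reads of an entry per 1000000 clean reads. No library was a copy of another: the chi-square per degree of freedom between each pair was at least 207 over the snRNA counts and 168 to 208 over all entries. This check sets the libraries against counting noise alone, and their number as replicates was taken from the labels.

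U1, which recognises the 5′ splice site of major introns, was the snRNA with the most reads in every library. Its level was 2142 CPM in replicate 1, 1514 in replicate 2 and 1400.2 in replicate 3 (1685 ± 399.7, SD, n = 3). It ranked 11 among all 2780 small RNA entries by mean CPM. U1 varied less between libraries than the other major RNAs, with a highest level 1.53 times its lowest. As a share of snRNA reads, however, U1 was highest in replicate 2, with 55.9%, against 39.8% in replicate 1 and 42.7% in replicate 3.

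U6, at the catalytic centre of the major spliceosome and a common reference for RT-qPCR of small RNAs, had 1115 CPM in replicate 1, 329.7 in replicate 2 and 751 in replicate 3 (732 ± 393, SD, n = 3). Its highest level was 3.38 times its lowest. U4, which pairs with U6 and keeps it inactive until the spliceosome is activated, had 428, 103 and 360 CPM (297 ± 172, SD, n = 3) and the widest range of the 11 families that include SmY and leave out those named for yeast and Giardia, 4.17-fold. Both RNAs were lowest in replicate 2.

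U2, which pairs with the branch point, had 833 CPM in replicate 1 against 255 and 304 in replicates 2 and 3 (464 ± 320, SD, n = 3). U5, which holds the exon ends in both spliceosomes, had 375, 138 and 152 CPM (222 ± 133, SD, n = 3). Replicate 1 stood apart for both, and without it the mean fell to 279.9 CPM for U2 and 145 CPM for U5.

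U12, which pairs with the branch point of minor introns, was the minor snRNA with the most reads, at 123, 78.0 and 92.8 CPM (97.9 ± 23.0, SD, n = 3). U6atac, the minor counterpart of U6, had 45.0, 64.0 and 30.9 CPM (46.6 ± 16.6, SD, n = 3) and was the single one of these 11 families that was highest in replicate 2. U11, which recognises the 5′ splice site of minor introns and forms a particle with U12, had 22.7, 6.27 and 10.7 CPM (13.2 ± 8.49, SD, n = 3). Without replicate 1 its mean was 8.47 CPM. U4atac, the minor counterpart of U4, had 12.99, 5.50 and 9.13 CPM (9.20 ± 3.74, SD, n = 3), from 334, 143 and 255 reads.

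U7 had 24.8, 15.8 and 22.6 CPM (21.1 ± 4.73, SD, n = 3), with 410 to 639 reads a library. Its range between libraries, 1.58-fold, equalled that of U12 to the digits given and was close to that of U1.

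**Figure D1:**
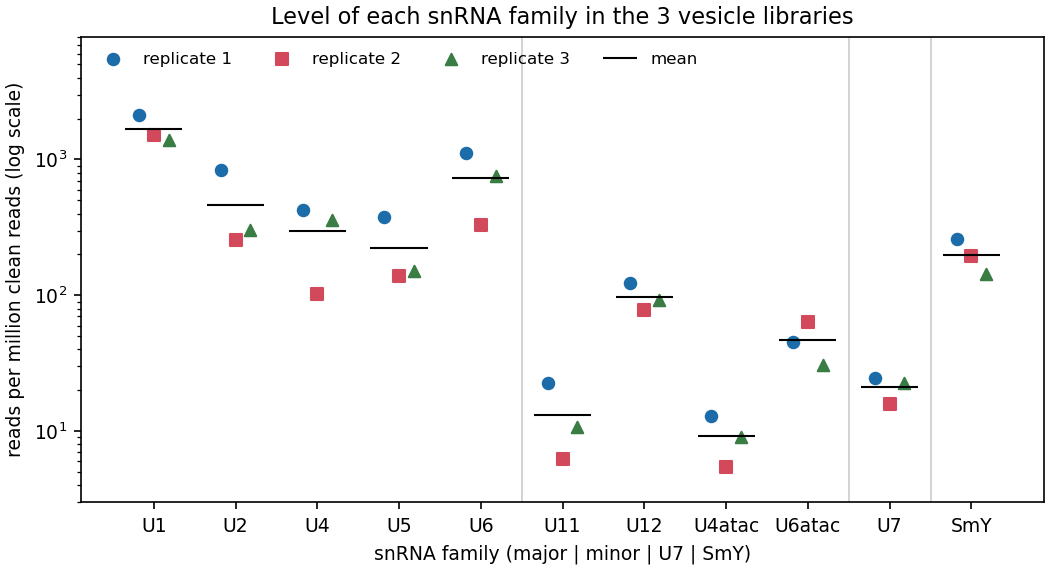
Level of each snRNA family in CPM of clean reads on a log axis, with 1 point per library and a line at the mean. U1 lies at 1400.2 CPM or above in every library and U4atac at 12.99 CPM or below, and replicate 1 is the highest library for every family shown except U6atac.

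SmY RNAs are known from nematodes, where they are linked to trans-splicing. The entry under this family name held 6726, 5067 and 3991 reads, or 262, 195 and 143 CPM (199.8 ± 59.5, SD, n = 3). It had 1.28 and 1.27 times the reads of all minor spliceosomal RNAs in replicates 1 and 2 and 0.996 times in replicate 3. The sequences behind these reads were not analysed here, so the mouse RNA that they come from is not known, and SmY was kept apart from the major and minor groups. The families named for yeast and Giardia held 56, 69 and 13 reads in total in replicates 1 to 3, at most 0.0980% of the snRNA reads. Of these 5 entries 4 had no read in at least 1 library, and the highest, Giardia U6, had 1, 47 and 0 reads.

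RNAs of different length were compared by their level per base for the 7 families with a reference gene, given as CPM per 100 bases of reference RNA. U1 (164 nt) had 1306, 923 and 854 and U6 (107 nt) had 1042, 308 and 702. The log2 difference of U1 over U6 was 0.73 ± 0.74 (SD, n = 3), positive in every library but no larger than its spread, so these neighbours were not told apart. U2 (191 nt) followed with a mean of 243 ± 168, U5 (116 nt) with 191 ± 115, U12 (151 nt) with 64.9 ± 15.2, U7 (62 nt) with 34.0 ± 7.62 and U11 (134 nt) with 9.85 ± 6.34 CPM per 100 bases. Each of these neighbours differed in one direction in every library and by more than the spread of the log2 difference. The smallest of these steps was U2 over U5, at 0.29 ± 0.13, and the largest was U7 over U11, at 1.96 ± 0.63 (log2, SD, n = 3). U7, the shortest of the 7, was also above U11 by reads, with means of 21.1 and 13.2 CPM. U4, U4atac and U6atac had no named gene in the reference used here and take no place in this order.

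The RNAs of the major spliceosome together took 90.9%, 86.4% and 90.6% of the snRNA reads. Those of the minor spliceosome took 3.78%, 5.68% and 4.38%, and U7 0.461%, 0.583% and 0.689%. SmY with the 5 families named for yeast and Giardia made up the remaining 4.90%, 7.30% and 4.37%. The smaller major share of replicate 2 went with larger minor and SmY shares there. In CPM the major group ranged 2.09-fold between libraries (4893, 2339.5 and 2968) and the minor group 1.42-fold (204, 154 and 143).

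**Figure D2:**
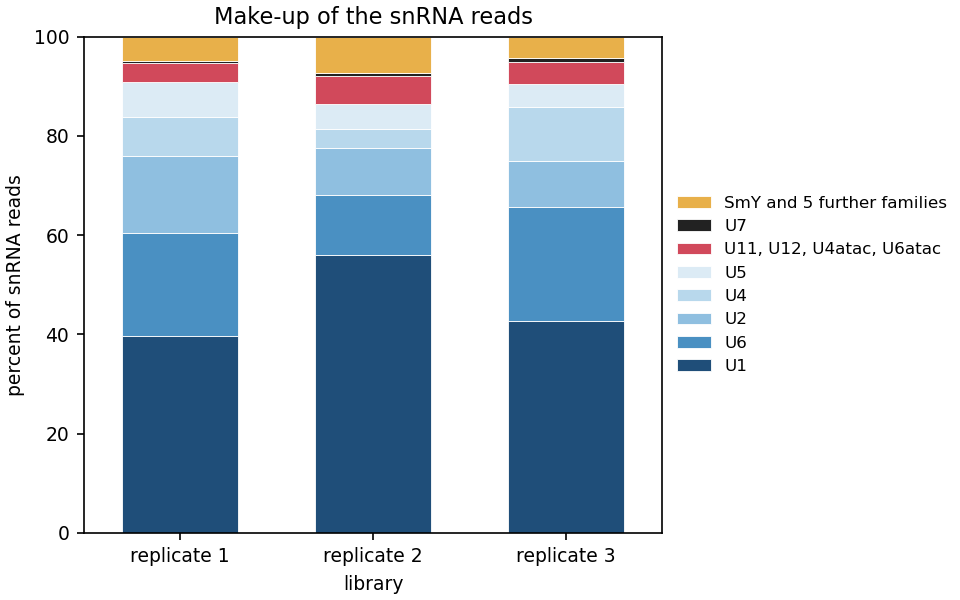
Share of snRNA reads, in percent, in each library as stacked bars starting at 0, with each major RNA and U7 drawn apart, the 4 minor RNAs as 1 segment and SmY with the 5 yeast and Giardia families as another. U1 takes 39.8%, 55.9% and 42.7% in replicates 1 to 3, and the minor RNAs together with U7 make up a thin band near the top of each bar.

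Within the major group, U1 gave 43.8%, 64.7% and 47.2% of the reads and U6 22.8%, 14.1% and 25.3%. U2 gave 17.0%, 10.9% and 10.3%, U4 8.74%, 4.38% and 12.1%, and U5 7.67%, 5.92% and 5.13%. In replicate 2, then, U1 took a larger part of the group and U4 and U6 a smaller one than in either other library. Within the minor group, U12 gave 60.4%, 50.7% and 64.7% and U6atac 22.1%, 41.6% and 21.6%. U11 gave 11.1%, 4.08% and 7.43% and U4atac 6.37%, 3.58% and 6.36%. U12 was the first and U6atac the next in every library, but their distance was smallest in replicate 2.

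The question of how the spliceosomes compare was addressed with the log2 ratio of reads within each library, in which depth cancels. Major over minor reads gave 4.59, 3.93 and 4.37 (4.29 ± 0.34, SD, n = 3), or 24.0, 15.2 and 20.7 times as many reads. The direction was the same in 3 of 3 libraries and the size exceeded its spread, with an exact sign-flip permutation p of 0.25 (two-sided, 0.25 after adjustment over 3 ratios), the smallest that 3 libraries allow. U1 carried much of this ratio: with U1 and U11 left out it was 3.32, or 10.01-fold, and with SmY counted as minor it was 3.17, or 9.01-fold. Major over U7 reads gave 7.62, 7.21 and 7.04 (7.29 ± 0.30), or 197, 148 and 131-fold. Minor over U7 gave 3.04, 3.29 and 2.67 (3.00 ± 0.31), or 8.20, 9.75 and 6.35-fold. Both had the same exact permutation p of 0.25 and adjusted 0.25. Over the families with a reference length alone, which drops U4, U4atac and U6atac, major over U7 in reads was 7.16 on the log2 scale and minor over U7 was 2.39. Per base over the same families they were 5.94 and 1.12. Without U1 and U11, major over U7 in reads was 6.21.

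Each minor RNA was then set against the major RNA with the same place in the other spliceosome. For the RNAs that recognise the 5′ splice site, U1 over U11 per base was 6.27, 7.62 and 6.75 on the log2 scale (6.88 ± 0.69, SD, n = 3), or 77.2, 197 and 107-fold. For the RNAs that pair with the branch point, U2 over U12 per base was 2.42, 1.37 and 1.38 (1.72 ± 0.60), or 5.35, 2.59 and 2.59-fold. The excess of the major RNA was thus larger for U1 over U11 than for U2 over U12 in every library, a difference that was not tested further. In reads, U4 over U4atac was 5.04, 4.22 and 5.30 (4.85 ± 0.56), or 32.9, 18.6 and 39.5-fold. U6 over U6atac was 4.63, 2.37 and 4.60 (3.87 ± 1.30), or 24.8, 5.15 and 24.3-fold. Replicate 2 decided the mean of the last ratio, which without it was 4.62, or 24.5-fold, against 14.6-fold with it. For each of these pairs the major RNA had the larger value in 3 of 3 libraries, with an exact sign-flip permutation p of 0.25, and 0.25 after adjustment over 7 pairs.

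Finally, RNAs that share a particle were compared. U11 and U12 form a di-snRNP, and U11 over U12 per base was -2.27, -3.46 and -2.95 (-2.89 ± 0.60, log2, SD, n = 3). That is 0.208, 0.0906 and 0.130 times the U12 value per base. The sequences shown above cover both RNAs, and the annotated length of U11 differs between references (134 nt in GENCODE, 108 nt in RefSeq). With RefSeq lengths the log2 difference was -2.59. U4 and U6 pair with each other, and U4 over U6 in reads was -1.38, -1.69 and -1.06 (-1.38 ± 0.31), or 0.384, 0.311 and 0.479 times. The minor partners U4atac over U6atac gave -1.79, -3.54 and -1.76 (-2.36 ± 1.02), or 0.288, 0.0859 and 0.295 times, and -1.78 without replicate 2. All of these pairs had the same direction in 3 of 3 libraries, with an exact sign-flip permutation p of 0.25 and adjusted 0.25. The U4 and U4atac values are of reads, without length. Neither they nor the values per base are levels per molecule, because whole RNAs and fragments cannot be told apart.

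**Figure D3:**
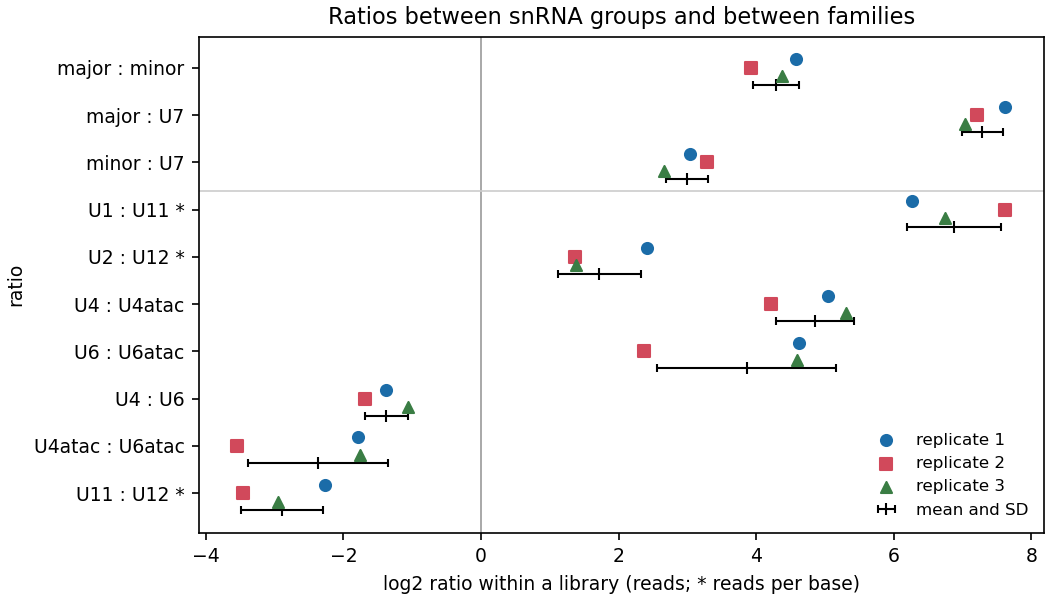
Log2 ratios within each library for the 3 group comparisons and the 7 pairs, with 1 point per library and a bar for mean ± SD. Ratios of U1, U2, U11 and U12 are per base and the others are of reads. Most ratios have their lowest point in replicate 2, among them U6 over U6atac at 2.37 and U4atac over U6atac at -3.54. No ratio changes sign between libraries.

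The 11 families that include SmY did not all follow the snRNA total across the libraries. Of these, 10 were highest in replicate 1, 8 were lowest in replicate 2 and 3 (U1, U6atac and SmY) were lowest in replicate 3. After TMM scaling U1 was lowest in replicate 2 instead, which made 9 and 2. The same shares over all small RNA entries were not counted. These counts therefore describe the 11 families and do not show a trait particular to snRNAs. Profiles were centred as log2 CPM minus the family's own mean, and the largest difference from the profile of the snRNA total was taken as the measure of likeness. It was 0.21 for U12, 0.23 for U4atac, 0.29 for U1 and 0.31 for U7, up to 0.87 for U4 and 0.94 for U6atac. The total includes each family, with U1 at 39.8% to 55.9% of it, so part of the likeness is built in. Among 170 entries of other classes with at least 1000 reads in every library, those closest to the snRNA total were all snoRNAs, which guide the modification or processing of ribosomal RNA. These were SNORD14 (115, 53.3 and 65.2 CPM, difference 0.07), U3 (751, 327 and 455 CPM, 0.14) and SNORD22 (129, 51.3 and 68.8 CPM, 0.18). With 3 libraries this likeness is a description only, and the part of snoRNAs among the 170 entries was not counted. SNORD20, the snoRNA with the highest mean level, had 757, 315 and 525 CPM and a 2.40-fold range.

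**Figure D4:**
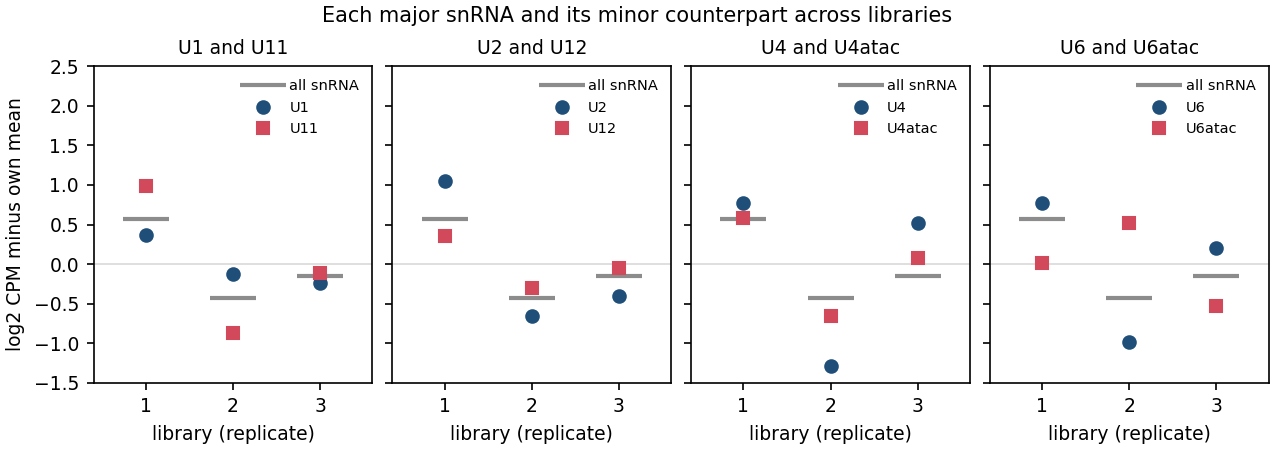
Log2 CPM minus the RNA's own mean over the libraries, for each major RNA (circles) and its minor counterpart (squares), with the snRNA total as a grey bar. U6 and U6atac lie on opposite sides of the total in every library, whereas U4 and U4atac share the order of the libraries.

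The spread of each family was set against the 712 small RNA entries with a mean of at least 100 reads, whose median ratio of the highest to the lowest library was 1.83. The median over the 11 snRNA families was 2.36, between 1.65 for 175 mature miRNAs and 2.78 for 173 snoRNAs. U1, U7 and U12 were on the narrow side, with 68.0%, 64.6% and 64.2% of the 712 entries more spread than they were. U4, U11, U6 and U2 were on the wide side, with 12.6%, 17.3%, 19.2% and 20.4% more spread. The range of U6 was 3.38-fold by clean reads, 3.51-fold after TMM scaling, 3.26-fold after DESeq2 scaling and 3.10-fold by annotated reads. U6atac was highest in replicate 2 under each of these 4 scalings.

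**Figure D5:**
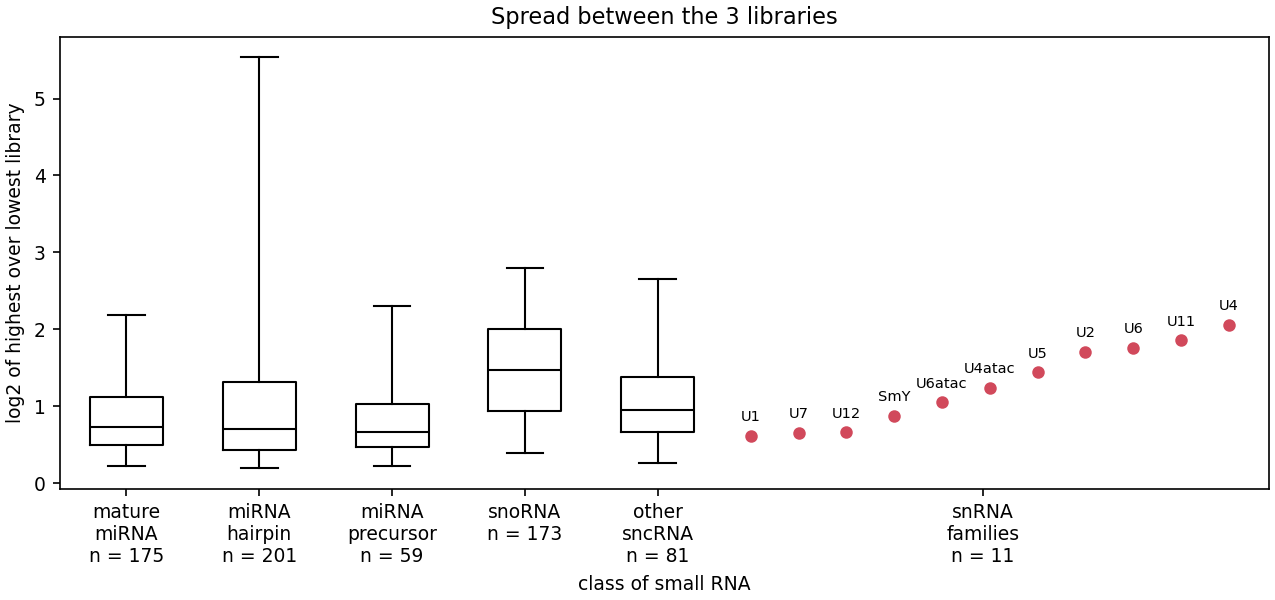
Log2 of the highest over the lowest library, for entries of 5 other classes with a mean of at least 100 reads (boxes, quartiles with the median; whiskers, percentiles 5 and 95) and for each of the 11 snRNA families (points). U1, U7, U12, SmY, U6atac, U4atac and U5 lie below the snoRNA median of 1.47, with U5 close to it, and U2, U6, U11 and U4 lie above it.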

How the data were processed

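Small RNA of testicular EVs was sequenced on BGISEQ-500 in 3 libraries. The authors removed low-quality reads, mapped clean reads with Bowtie2 and cmsearch to the genome and small RNA databases, and gave each read to 1 class by database priority. The submitters' processing notes name mm10. The deposited values are whole-number counts per entry and class, and the percent of clean reads per class. A further column equalled CPM on every named entry and was not used. The 5 rows without a small RNA stayed out of all entry counts.

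CPM of clean reads, shares of snRNA reads and log2 ratios within libraries were computed from the counts. Ratios were tested with an exact two-sided sign-flip permutation test and Benjamini-Hochberg adjustment. No comparison across many features was made, so no percentage of called features is given. Libraries are pools of mice, and 3 values of one sign give a permutation p of 0.25 whatever their spread. The p-values thus bear on direction only. PCR copies were not told apart, so intervals cover counting error only. Lengths and sequences came from GENCODE vM21 (GRCm38, the assembly of mm10), and lengths of RefSeq were an alternative. edgeR 4.0.16 and DESeq2 1.42.0 (R 4.3.3) gave scaling factors only. Other steps ran in Python 3.11.15 with SciPy 1.17.1, Biopython 1.88, numpy 2.4.6, pandas 2.3.3 and matplotlib 3.10.9. The scripts were tested on simulated data.

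Members and lists were chosen with earlier results of these data known. The named RNAs were all snRNA entries, the most abundant snoRNA and the 3 entries with at least 1000 counts in every library closest in profile to the snRNA total. The alternatives with RefSeq lengths, with U6atac alone left out, with SmY counted as minor and with reads over the families of known length alone were chosen after seeing the data. Sample titles carry the word treated, which was read as the enzyme treatment that the protocol gives for all libraries. The reference sequence of U6 is not reported here.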

Additional observations from a re-analysis of the deposited data

How the results depend on the processing

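The snRNA share was 0.379% of clean reads, 0.377% from pooled counts, 0.447% of mapped reads and 1.06% of annotated small RNA reads, a smaller denominator by construction. With each replicate left out it ranged from 0.299% to 0.433%. None of the 63 alternative values of the 10 ratios changed direction. A minimum of 10 counts in every library left major over minor at 4.29 on the log2 scale, U5 left out gave 4.20, U6 and U6atac left out 4.45 and U6atac alone left out 4.79. Over the families with a reference length alone it was 4.77 in reads and 4.81 per base. All 11 family levels were larger with annotated reads as the denominator, again by construction, and TMM or DESeq2 scaling moved none beyond its SD. With 3 libraries no permutation p can go below 0.25, and with 2 none below 0.5, so these tests bear on direction only. No paired analysis was possible because there is 1 group. U4atac, with 143 to 334 reads, had the fewest reads of the major, minor and U7 RNAs.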
